A study of Mus musculus with 2 samples.

Results

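The genes of the major histocompatibility complex (MHC) were examined in the prefrontal cortex (PFC) of mice exposed to chronic mild stress (CMS). Members were all genes whose mouse symbol begins with H2-, together with B2m, Cd74 and Ciita. The RefSeq gene table of GRCm38.p6 holds 53 such genes, and 37 of them had a probe on the arrays that was named by a RefSeq accession, of 20658 genes named in that way. Both groups were male C57Bl/6 N sea mice, 9 to 10 weeks old at the start. The C group received ordinary care and was housed in groups, and the CMS group was housed singly and exposed to repeated unpredictable stressors for 4 weeks, with tissue taken the day after the last stressor. Single housing and the stressors came together, so that they cannot be told apart. RNA of each group was pooled and hybridized to 1 one-color Agilent array. A pool held RNA of 7 mice by the series text, whereas the methods name 10 mice for each group. A single array stood for each group, so values have no spread between samples and the groups were compared without a test. In RNA of whole tissue, fewer cells of a type and less RNA per cell cannot be told apart.

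MHC class I molecules are made of a polymorphic heavy chain and the light chain beta-2 microglobulin, and they show peptides from inside the cell to CD8 T cells and to natural killer cells. Mice carry classical heavy chains in the K and D regions, and many class Ib heavy chains in the Q, T and M regions. Class II molecules are pairs of an alpha and a beta chain, which microglia, macrophages, dendritic cells and B cells use to show peptides from the endosome to CD4 T cells. In the healthy brain both classes are kept low, and interferon raises them in glia.

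One member, H2-Q10, differed widely between the pools, and it is a class Ib heavy chain that is secreted instead of anchored in the membrane and is known to be made mainly by the liver. Its promoter is shown here beside those of 3 class I genes of the membrane-bound kind. All of them lie on 1 chromosome, where H2-K1 stands apart from the other 3. They are shown together because their windows hold some elements in common and differ in others. Each line is the 250 bases before the annotated start, the most downstream one of a gene, from RefSeq on GRCm38.p6, written in the direction of the gene: H2-Q10 at chr17:35469839-35470088 (plus strand), H2-K1 at chr17:34000334-34000583 (minus strand), H2-D1 at chr17:35262844-35263093 (plus strand) and H2-Q7 at chr17:35438905-35439154 (plus strand). Capitals mark exact matches, on either strand, to GGGGATTCCC, the core of the class I enhancer A that NF-kB binds, and to GTTTCACTTC, the interferon-stimulated response element of class I genes, both as they stand in H2-K1.
H2-Q10: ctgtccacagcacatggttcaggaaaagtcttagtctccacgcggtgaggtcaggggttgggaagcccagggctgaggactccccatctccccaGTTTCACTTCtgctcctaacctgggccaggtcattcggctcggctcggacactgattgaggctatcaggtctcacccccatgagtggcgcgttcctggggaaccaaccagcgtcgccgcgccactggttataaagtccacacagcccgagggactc
H2-K1: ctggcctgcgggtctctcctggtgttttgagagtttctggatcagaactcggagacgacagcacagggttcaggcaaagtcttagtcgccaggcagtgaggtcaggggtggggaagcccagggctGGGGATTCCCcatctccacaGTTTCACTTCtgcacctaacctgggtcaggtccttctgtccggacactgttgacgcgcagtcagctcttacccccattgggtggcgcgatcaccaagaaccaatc
H2-D1: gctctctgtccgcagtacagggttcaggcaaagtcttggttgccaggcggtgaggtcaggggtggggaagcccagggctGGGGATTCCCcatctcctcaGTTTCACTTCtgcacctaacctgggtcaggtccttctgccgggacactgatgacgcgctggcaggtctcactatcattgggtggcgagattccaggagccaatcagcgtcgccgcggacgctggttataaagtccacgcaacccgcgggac
H2-Q7: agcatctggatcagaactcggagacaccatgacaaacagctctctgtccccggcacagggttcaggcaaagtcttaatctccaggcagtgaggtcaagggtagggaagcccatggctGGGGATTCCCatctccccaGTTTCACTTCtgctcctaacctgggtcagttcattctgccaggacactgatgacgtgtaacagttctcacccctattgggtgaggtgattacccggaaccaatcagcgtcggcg
The response element GTTTCACTTC stood in all 4 windows and in 7 of 33 members with a promoter in the table, and it was found on either strand in 0.110% of 32851 windows of the same length. The enhancer core GGGGATTCCC stood in H2-K1, H2-D1, H2-Q6 and H2-Q7, and in 0.0852% of all windows. In H2-Q10 the 10 bases at the same distance before the response element as in H2-K1 were GAGGACTCCC, which differ from the core by G2A and T6C, counted from 1 at its 5′ end. The H2-Q10 window also held no CCAAT on either strand, whereas 30 of the 33 members and 33.8% of all windows held one. The H2-Q10 window held TATAAA and was 1 of 13 such windows among the 33 members, beside 12.4% of all windows. The last CCAAT stood 53 bases before the start in H2-D1, 16 in H2-Q7 and 6 in H2-K1, so the windows end at different places. The lack of TATAAA in the H2-K1 and H2-Q7 windows thus holds only for the bases shown. No match of one of the 4 motifs overlapped a match of another in the member windows. A match describes the letters of the window and does not show binding.

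On both arrays, 59305 spots of 55681 probes were measured, of which 65.2% (C) and 65.9% (CMS) were well above background. Arrays were scaled to a mean of 2500. Of the marker genes of the labelled tissue, all 6 of neurons, all 5 of astrocytes and all 5 of oligodendrocytes were well above background in both pools, and none of these 16 differed by 2-fold. Markers of hepatocytes, a cell type that the PFC does not hold, were higher in the CMS pool, with 9 of 10 more than 2-fold higher. Gapdh had a log2 ratio of CMS over C of 0.04. Where a probe had several spots, its log2 ratios varied between spots with an SD of 0.13 (342 probes), a measure of error within arrays that leaves out the variation of mice.

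Of the 37 members with a probe, 27 were well above background in at least 1 pool and received a log2 ratio, and 10 were not well above background in either pool. Of several probes for a gene, the brightest by mean log2 signal stood for it. Among the 27 members, H2-Q10 and H2-T3, 2 in all, passed 2-fold with the higher signal in CMS, and none was more than 2-fold lower. Among all 27117 gene names with a ratio, 1.99% were more than 2-fold higher and 0.59% more than 2-fold lower. The median log2 ratio of the 27 members was 0.07, and that of all gene names was -0.03. The middle range between quartiles was -0.08 to 0.20 for the members and -0.13 to 0.07 for all gene names. Apart from H2-Q10 and H2-T3, the members lay between -0.67 for H2-Q1 and 0.46 for H2-K2.

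**Figure D1:**
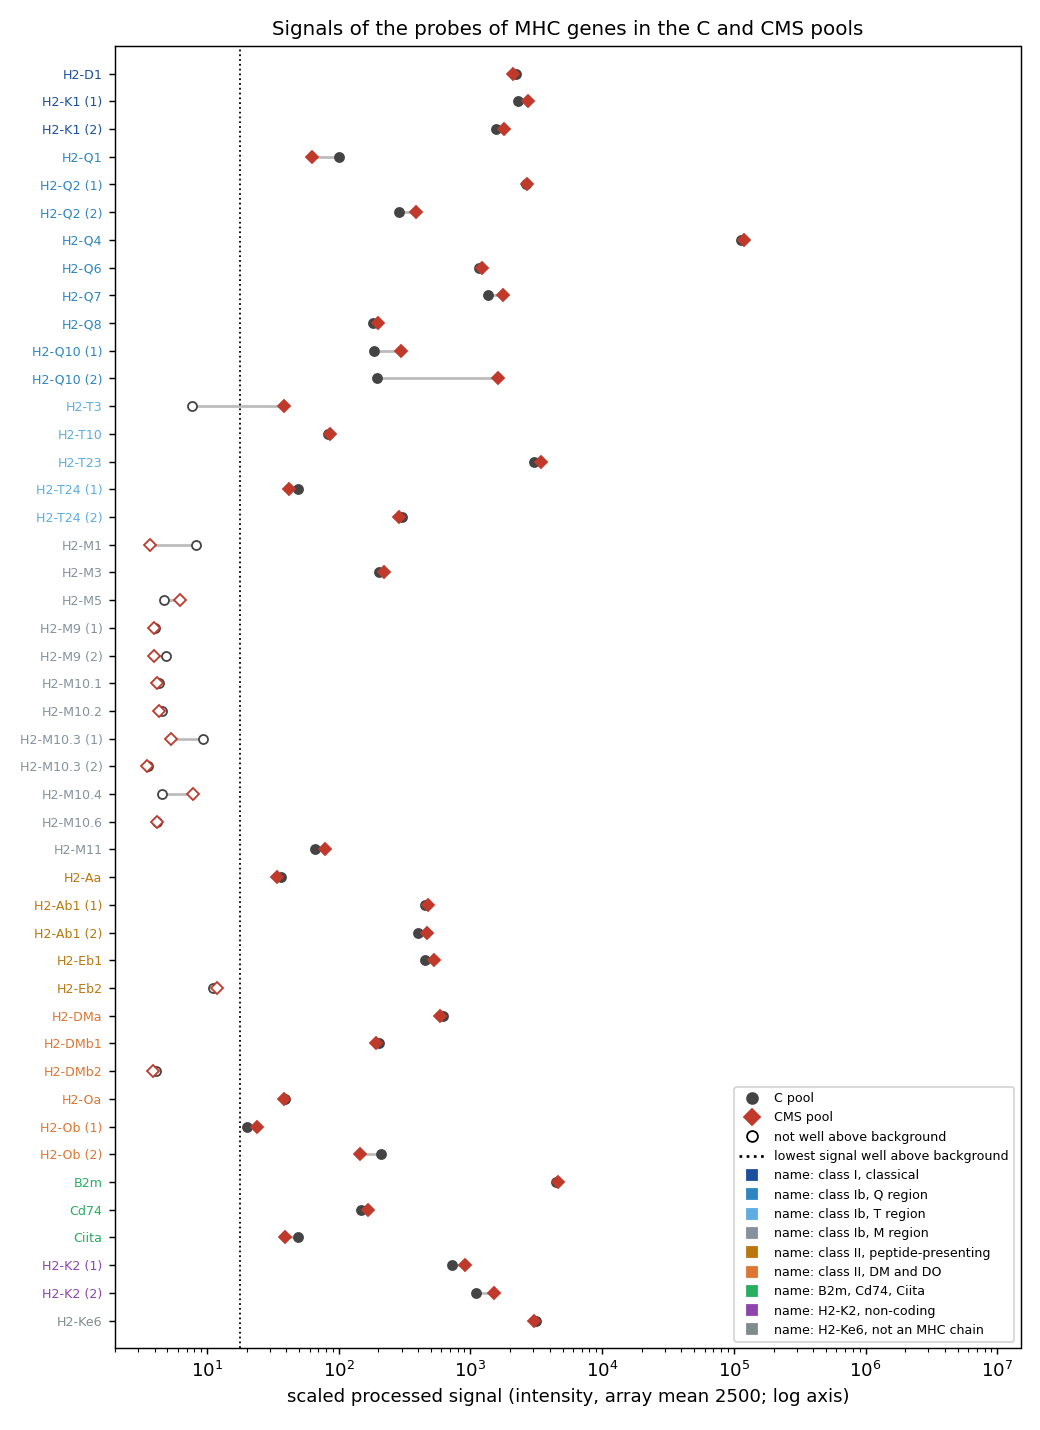
Scaled processed signal of the 46 probes of MHC genes in the C pool (circles) and the CMS pool (diamonds), on a log axis, with open symbols for probes not well above background and a number after the name where a gene has several probes. The second probe of H2-Q10 moved from 194 to 1614, while most of the others lay close together in both pools.

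The classical class I heavy chains are the main peptide-presenting molecules of most cells. H2-K1 was read by 10 spots of 1 probe on each array. Its signal lay between 2168 and 2487 over the C spots and between 2489 and 2884 over the CMS spots, so that the ranges nearly touched. The log2 ratio of these spots was 0.24 ± 0.04 (SD, n = 10 spots), from 0.20 to 0.31. This spread is that of spots on a pair of arrays and says nothing about mice, and with no scaling of the arrays the log2 ratio of H2-K1 was 0.06. A second H2-K1 probe went from 1571 to 1786, a log2 ratio of 0.18. H2-D1 went from 2217 to 2116, a log2 ratio of -0.07. The classical genes thus stood on either side of 0, by less than 2-fold in each case. H2-K2, a non-coding relative of H2-K1, went from 1108 to 1521 with a log2 ratio of 0.46, and its second probe gave 0.35. B2m, the light chain that all class I heavy chains of this kind need for export, was read by 2 spots and went from 4452 to 4587, a log2 ratio of 0.04.

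The Q region gave 7 genes with a ratio, and H2-Q10 stood far from the other 6. H2-Q10 was read by 2 probes with 1 spot each on each array. On the brighter probe the signal was 194 (C) against 1614 (CMS), with scanner errors of 19.8 and 161. This is a log2 ratio of 3.06, a fold change of 8.34. On the other probe it went from 185 to 294, a log2 ratio of 0.67. Both probes were higher in the CMS pool and well above background in both, but they differed from each other by 2.38 on the log2 scale, and 1 of them stayed under 2-fold. The call of H2-Q10 therefore rests on 1 probe. The median log2 ratio of the 75 spots within 5 rows and columns of the brighter probe was -0.05, so that the array around it showed no such difference.

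The other genes of the Q region lay closer to 0. H2-Q7, one of the genes for the Qa-2 antigen, went from 1351 to 1753, a log2 ratio of 0.38. H2-Q6, a further Qa-2 gene, went from 1164 to 1222, with 0.07, and H2-Q8 from 182 to 199, with 0.13. H2-Q4 was at 114139 and 119529, a log2 ratio of 0.07. This was the highest signal of all members, far above that of B2m at 4452 in the C pool. Whether the probe reads H2-Q4 was not tested. H2-Q2 gave 0.02 on its brighter probe, from 2648 to 2680, and 0.42 on the other, from 288 to 385. H2-Q1 was the lowest member of all, with 99.7 in C and 62.6 in CMS, a log2 ratio of -0.67. Q region genes are near copies of each other and of H2-K1 and H2-D1, so a probe named for 1 gene may read the transcripts of others, and the values of single genes are uncertain to that extent.

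In the T region, H2-T3, the thymus leukemia antigen, which is known from the intestinal epithelium and binds CD8, had a signal of 7.66 for C, not well above background, and 38.2 for CMS, well above it. The dimmest probe well above background had 17.8 in the C pool, and against this limit the CMS signal of H2-T3 was at least 2.15-fold higher. This is a bound from 1 dim spot per array. H2-T23, which encodes Qa-1 and presents leader peptides of other class I chains to natural killer cells, went from 3042 to 3421, a log2 ratio of 0.17. H2-T10 gave 0.03, and H2-T24 gave -0.08 on its brighter probe and -0.22 on the other.

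In the M region, H2-M3, which presents formylated peptides of bacteria and mitochondria, went from 202 to 222, a log2 ratio of 0.14. H2-M11 went from 66.0 to 78.9, with 0.26. The other 8 M region genes with a probe, H2-M1, H2-M5, H2-M9, H2-M10.1, H2-M10.2, H2-M10.3, H2-M10.4 and H2-M10.6, were not well above background in either pool. The M10 genes are known from the vomeronasal organ. Over all class I heavy chains with a ratio, 12 of 15 lay above the median of all gene names, and the median log2 ratio was 0.13. Of the 15, 2 had a ratio of CMS over C above 2-fold, beside 1.99% of all gene names. These were H2-Q10, on 1 of its 2 probes, and H2-T3, through a bound from its CMS signal alone.

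**Figure D2:**
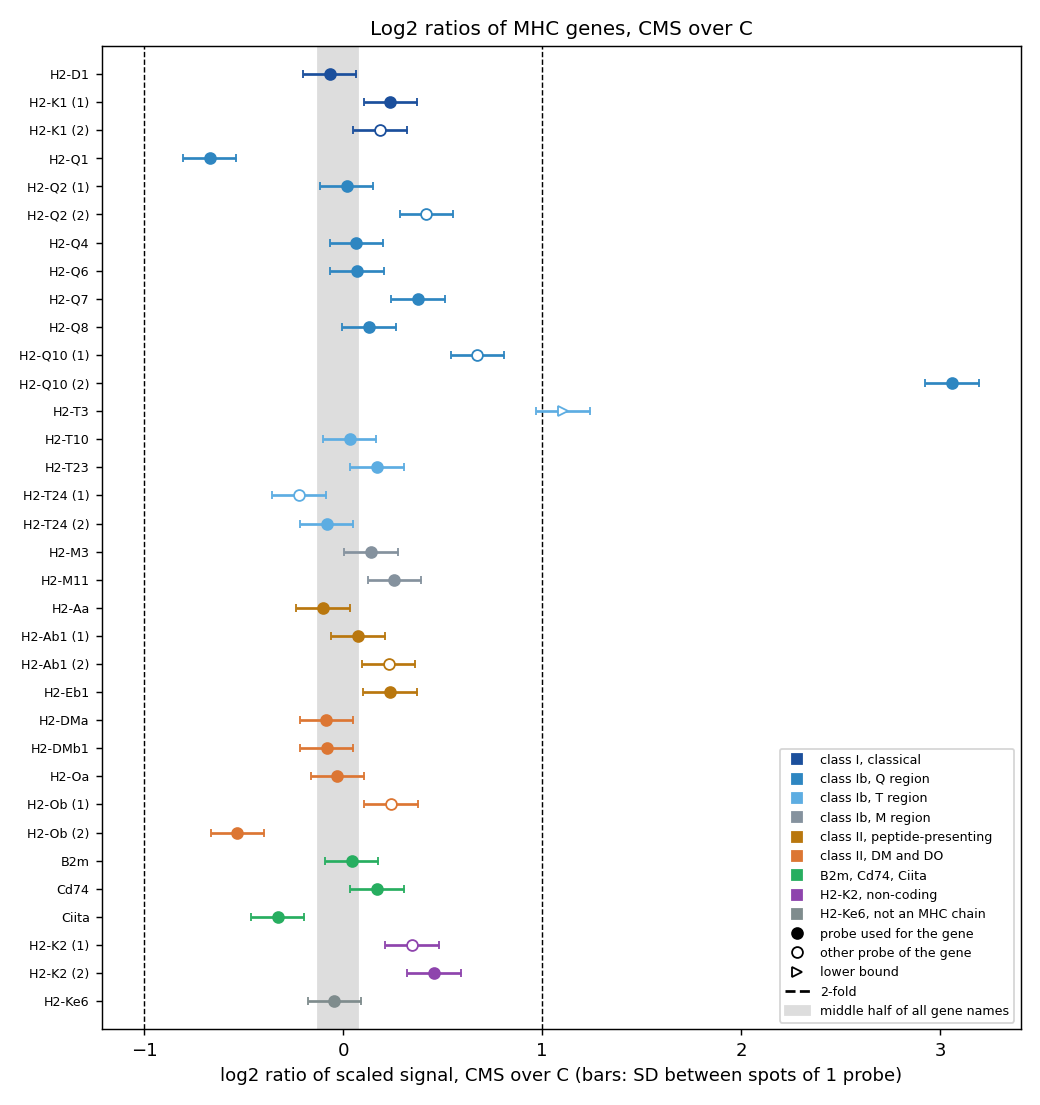
Log2 ratio of CMS over C for the member probes with a ratio, with bars for the SD of 0.13 between spots of 1 probe, the range between the quartiles of all gene names in grey and dashed lines at 2-fold. The brighter H2-Q10 probe stands at 3.06 and its other probe at 0.67, H2-T3 is a lower bound, and every other member lies inside the 2-fold lines. The bars are the same for all probes, whereas the scanner error on the log2 scale was larger for dim ones, such as 0.33 for H2-Aa.

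The peptide-presenting class II chains showed small ratios. H2-Ab1, the beta chain of I-A, went from 453 to 477 on its brighter probe, a log2 ratio of 0.08, and from 396 to 464 on the other, with 0.23. H2-Aa, the alpha chain of I-A, went from 36.4 to 33.9, a log2 ratio of -0.10. The chains of this pair thus stood on either side of 0, on the probes used by less than the SD of 0.13 between spots. That SD came from probes with several spots, whereas these 2 probes had 1 spot each. Their scanner errors on the log2 scale were larger, 0.33 for H2-Aa and 0.20 for H2-Ab1. H2-Eb1, the beta chain of I-E, went from 449 to 528, with 0.23. H2-Eb2 was not well above background in either pool.

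H2-DM removes the invariant chain fragment from class II in the endosome, and H2-DO restrains it. H2-DMa went from 620 to 585 and H2-DMb1 from 204 to 192, each with a log2 ratio of -0.08. H2-Oa was at 39.2 and 38.4, with -0.03. H2-Ob went from 210 to 146 on its brighter probe, a log2 ratio of -0.53, but a dimmer probe went from 20.1 to 23.7, with 0.24. The probes of H2-Ob thus pointed opposite ways. H2-DMb2 was not well above background in either pool. Over all class II chains with a ratio, 3 of 7 lay above the median of all gene names, and the median log2 ratio was -0.08.

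Cd74, the invariant chain that guides class II to the endosome, went from 147 to 166, a log2 ratio of 0.17. Ciita, the transactivator that class II genes need, went from 49.4 to 39.3, a log2 ratio of -0.33. H2-Ke6 carries the H2- name for its place in the region but encodes a hydroxysteroid dehydrogenase and no MHC chain, and it went from 3124 to 3031, with -0.04. The remaining 16 members, H2-Bl, H2-D4, H2-Ea, H2-M10.5, H2-M10.5-ps1, H2-M2, H2-M4-ps, H2-M6-ps, H2-Pa, H2-Pb, H2-Q3, H2-Q5, H2-Q9, H2-T-ps, H2-T18 and H2-T22, had no probe named by a RefSeq accession here.

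Genes that prepare peptides for class I were near 0 as well. Of 15 listed, 14 had a ratio and none passed 2-fold, with a median log2 ratio of 0.03. Tap1 and Tap2, the peptide transporter of the endoplasmic reticulum, gave -0.23 and -0.15, and Tapbp, which holds the empty class I molecule at the transporter, gave -0.04. The immunoproteasome subunits Psmb8 and Psmb9 gave 0.02 and 0.11. Nlrc5, the transactivator of class I genes, went from 35.5 to 46.3, with 0.38. For class II, 9 of 11 listed genes had a ratio and none passed 2-fold, with a median of 0.01. Among them, the protease Ctss gave 0.11, the thiol reductase Ifi30 gave -0.35, and Rfx5, a factor that binds class II promoters, was well above background in the CMS pool alone on its first probe, at least 1.33-fold higher, and gave -0.14 on its second. Of 15 genes of interferon signalling, which drives both classes, 14 had a ratio and none passed 2-fold, with a median of -0.07. Irf1, an interferon-induced factor that binds class I promoters, gave -0.04, and Ifng was not well above background in either pool.

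Of 11 listed class I-like genes outside the H2- names, 8 had a ratio, with a median of 0.05. Among these, 3 were more than 2-fold higher and none was more than 2-fold lower, beside 1.99% and 0.59% of all gene names, and 1 of the 3, Raet1e, had a ratio through its CMS signal alone. Azgp1, a soluble class I-like protein of plasma that the liver makes, went from 189 to 1050, a log2 ratio of 2.47. Cd1d1, which presents lipids to NKT cells, went from 139 to 300, with 1.11, and its other probe from 28.0 to 45.0, with 0.68. Raet1e, a ligand of the NKG2D receptor, was at 7.84 in the C pool, not well above background, and at 46.0 in the CMS pool, at least 2.58-fold higher. Fcgrt, the Fc receptor that recycles IgG and albumin, gave -0.13, Hfe, which regulates iron uptake, gave 0.09, and Procr, the protein C receptor of endothelium, gave -0.70. The list thus held genes well past 2-fold beside genes near or below 0.

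**Figure D3:**
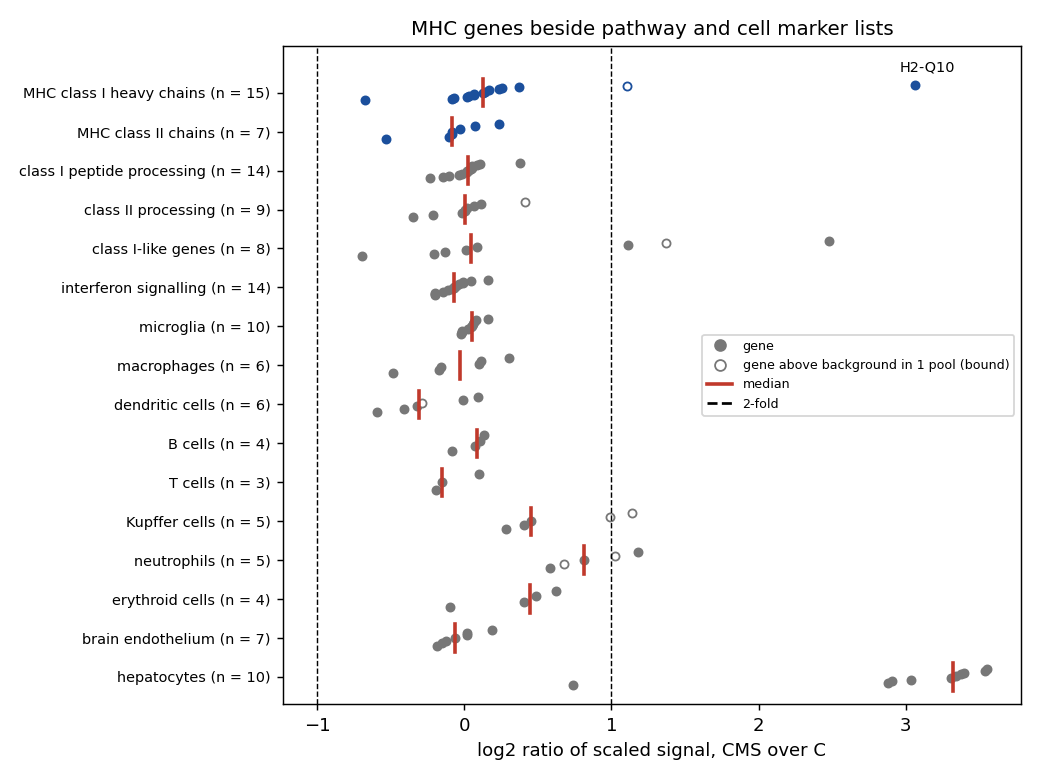
Log2 ratio of CMS over C for single genes (points; open where a gene was well above background in 1 pool, so that the value is a bound), with list medians in red, for MHC heavy chains and class II chains, for pathway lists and for marker lists of cell types. The brighter H2-Q10 probe, which is plotted, stands at 3.06 among hepatocyte markers with a median of 3.32, whereas its other probe, not plotted, gave 0.67, below the lowest of these markers at 0.74.

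Markers of the cells that carry MHC molecules were set beside these values. All 10 microglia markers were well above background in both pools, with none past 2-fold and a median of 0.05, and their signals summed to 71009 (C) and 74131 (CMS). The largest part of this sum came from the brightest Itgam probe, with 33158 (C) and 34619 (CMS). The other Itgam probes were at 117 and 67.2 in C, with log2 ratios of -0.13 and -0.06. Of the dendritic cell markers, 6 of 8 had a ratio, with a median of -0.31 and a summed signal of 752 and 650. Among these, Itgax was well above background in the C pool alone, and its ratio of -0.29 was a bound that could only be negative. Zbtb46 gave -0.32 on its brighter probe and -0.002 on the other. The defining markers Xcr1 and Clec9a were not well above background in either pool. Of the B cell markers, 4 of 6 had a ratio, with a median of 0.09, and Ms4a1 and Pax5 were not well above background. Macrophage markers had a median of -0.03 over 6 genes, T cell markers -0.15 over 3 genes, with Cd3d, Cd3g, Cd8a and Cd8b1 not well above background, and brain endothelium markers -0.06 over 7 genes. The 3 T cell genes were Cd4, Cd3e and Lck, at 6290, 1284 and 434 in C. The other Cd4 probe was only at 31.1 in C, with a log2 ratio of -0.32. Whether these probes read T cells was not tested.

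Beside the higher signal of H2-Q10, all 10 hepatocyte markers were well above background in both pools. Their signals summed to 5740 (C) and 52996 (CMS), and 9 of them were more than 2-fold higher, with a median log2 ratio of 3.32 and a range of 0.74 to 3.55. Alb, the albumin gene, went from 1509 to 17486, a log2 ratio of 3.53. The others past 2-fold were Ahsg, Ambp, Apoa1, Apoh, Cyp2e1, Fabp1, Hnf4a and Serpina3k, and Tat had 0.74. Kupffer cell markers, of which 5 of 6 had a ratio, had a median of 0.45 and a summed signal of 345 and 496, with Timd4 not well above background and Clec4f at least 2.20-fold higher. Neutrophil markers had a median of 0.82 over 5 of 6 genes, with a summed signal of 721 and 1439. Of these, 2 passed 2-fold, beside 1.99% of all gene names, S100a9 with a log2 ratio of 1.18 and Ltf at least 2.03-fold higher. In each of these 2 lists, 2 of the 5 ratios were bounds from genes well above background in the CMS pool alone. These genes were Clec4f and Vsig4, and Ltf and Ngp. Such bounds can only be positive, so the medians of both lists are raised in part by the rule. Erythroid markers had a median of 0.45 over 4 of 6 genes and a summed signal of 60387 and 64087. The part of any of these cell types in the values of H2-Q10, H2-T3 and the class I-like genes was not tested.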

How the data were processed

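Total RNA of the PFC was pooled per group, labeled with Cy3 and hybridized to 1 array per group, both on 1 slide. Intensity values were deposited by the authors as Agilent Feature Extraction 10.10.1.1 output, background-subtracted and spatially detrended within each array with no scaling between the arrays. Their value table held the same intensities and was the scanner signal times 1 factor per array (1.80 for C, 2.05 for CMS; column medians 149 and 153), so its scale and direction were settled and it was not centred per gene.

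Control spots and outlier spots (130 in C, 133 in CMS) were left out, spots of a probe were averaged, and a probe passed as well above background if at least 0.5 of its spots did. Each array was brought to a mean of 2500, as the methods state. A probe well above background in 1 pool received, in the other pool, the dimmest signal well above background there (17.8 in C, 17.6 in CMS) or its own signal where that was higher, and its ratio is a bound. Genes were called at a ratio above 2 or below 0.5, as in the study, and no test was made with 1 array per group. The number of arrays limits the precision.

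Accessions were named without versions through the RefSeq table of GRCm38.p6. A symbol was found for 30740 of 59305 spots. The array design names an older build, and no probe coordinates were used. Members, gene lists and named genes were chosen with earlier results of these data known. Every member is accounted for; of the other lists, genes past 2-fold and a set of central genes are named, of which 1 is not reported here. The rule also held the 3 brightest genes of each marker list, for which medians and summed signals are given instead. Beside the main setting, 12 others, and 1 chosen after seeing the data, concerned scaling, background correction, the deposited table, dim probes, outlier spots and the probe taken per gene. Scripts were tested on simulated data. Calculations used Python 3.11.15, numpy 2.4.6, pandas 2.3.3, R 4.3.3 and limma 3.58.1.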

Additional observations from a re-analysis of the deposited data

How the results depend on the processing

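No paired analysis was possible because a single array stands for C and another for CMS, which also left no replicate to omit and no block for the slide. Of 2 members more than 2-fold higher, 1 was left with no scaling, under normexp background correction with quantile normalization and without probes that were dim on either array, in each case H2-Q10. With the dimmest probe of each gene, an alternative chosen after seeing the data, 1 was left as well, H2-T3, because H2-Q10 was then at 0.67. With the mean of all probes H2-Q10 was at 1.87, and over the 14 settings it lay between 0.67 and 3.08. H2-T3 lay between 0.67 and 2.32 over the 13 settings in which it had a ratio. No member was more than 2-fold lower, except 1, H2-M1, when probes near background were kept with no filter. The member median of 0.07 was -0.11 with no scaling, 0.032 with no filter and 0.13 with the dimmest probe. Leaving out the scaling moved the median of all gene names from -0.03 to -0.20, and relative to it the member median lay between 0.06 and 0.16 over all 14 settings. Of the values of single members under the alternatives, 308 stayed within the SD between spots and 42 moved, 27 of these with no scaling. This count does not measure robustness, because many of the values could not move. Settings for dim probes leave members well above background on both arrays unchanged, and settings for the probe taken leave single-probe genes unchanged. Scaling by a single factor per array shifts all members and the median of all gene names nearly alike. The cause of the moves was not tested. Signal over background limits the 10 members near background and the bound of H2-T3.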
